A study of Arabidopsis thaliana with 21 samples.

Results

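Arabidopsis thaliana plants labelled as overexpressing the transcription factor WRKY6 (genotype OXW6) were compared with wild type, both of the Col-0 accession and both held in 30 µM arsenate for 1.5 h. The comparison uses 6 of the 21 arrays of the series, chosen by their labels: 3 OXW6 arrays and 3 wild-type arrays, all on a single-colour NimbleGen expression array. A further 3 arrays of wild type at 1.5 h without supplement are given beside them for their levels, and share the estimate of the spread. Per the labels, every plant in these 3 groups had 7 days on medium with 1 mM phosphate and then 2 days on medium without phosphate, so the untreated wild type is a phosphate-deprived plant too. The promoter behind the overexpression, the number of lines and the organ harvested are not given in the sources used here. No overexpressor without arsenate was analysed here, so a standing difference of the genotype and a different response to arsenate cannot be told apart.

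WRKY6 belongs to the group IIb WRKY factors, which bind the W-box in promoters, and it is known as a repressor of PHO1, the gene for a phosphate exporter that loads the xylem. Arsenate resembles phosphate and enters root cells through the PHT1 phosphate transporters, after which it is reduced to arsenite, which binds thiols and is chelated by phytochelatins. The series title names arsenate uptake and transposon activation as the processes of interest, so phosphate transport genes and retroelement loci are the groups the comparison bears on most directly.

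The values are log2 signals after RMA, the authors' normalization of each array's probes. There were 37118 features for 32627 loci, and 3602 loci had several features. A difference is OXW6 minus wild type under arsenate in log2 units, so that 1 unit is a doubling, and it is given with its moderated standard error (SE) from limma. A feature was called at a Benjamini-Hochberg adjusted p under 0.05 over all 37118 features. The 3 arrays per group limit the precision of every value: the median SE was 0.124 and the median half-width of the 95% interval was 0.285.

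A pair of OXW6 arrays lay further apart than any replicate pair of wild type. OXW6 replicates 1 and 2 correlated across features at r = 0.9804, whereas replicate arrays of the wild-type groups correlated at 0.9916 to 0.9955, and OXW6 replicate 3 correlated at 0.9926 with replicate 1 and 0.9911 with replicate 2. Replicate 1 was the further from arsenate-treated wild type (0.9817 to 0.9849) and replicate 2 the nearer (0.9934 to 0.9966). With the untreated arrays, OXW6 replicate 1 correlated at 0.970 to 0.975, replicate 3 at 0.973 to 0.975 and replicate 2 at 0.960 to 0.969. The arsenate-treated wild-type arrays correlated with the untreated ones at 0.957 to 0.967, so replicates 1 and 3 lay nearer to untreated wild type than these did. Leaving out replicate 2 moved the count of calls most, so results are given with and without it. Arrays with the same replicate number deviated together in all 9 pairs, so a second fit, blocked on that number, is given beside the results where it alters a call.

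The overexpressed gene itself was read first. WRKY6 (AT1G62300, chromosome 1) stood at 15.61, 15.50 and 15.55 on the untreated wild-type arrays, at 15.82, 15.85 and 15.85 in wild type with arsenate, and at 15.82, 15.80 and 15.87 in OXW6 with arsenate. The 2 arsenate groups overlapped. The difference was -0.01 ± 0.063 (adjusted p = 0.99), with a 95% interval from -0.15 to 0.14. This feature lay above at least 92.7% of all features on each array, and the arrays' highest values were 15.95 to 15.97, so the label could not be checked by a rise of WRKY6 RNA here. The groups are called by their label, OXW6, throughout.

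The gene next to WRKY6 differed more. AT1G62290, the neighbouring locus in RefSeq order and picked out after its values were seen, read 12.99, 12.21 and 12.52 in untreated wild type and 12.61, 12.21 and 12.42 in wild type with arsenate. In OXW6 it read 13.89, 13.31 and 13.52. Every OXW6 array lay above every wild-type array of either group. The difference was 1.16 ± 0.22 (adjusted p = 0.36, in the blocked fit 0.043, so that the blocked fit called it). The other 11 measured loci among the 6 on each side of WRKY6 gave 12 features with differences of -0.41 to 0.31, and the smallest unadjusted p among them was 0.037.

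**Figure D1:**
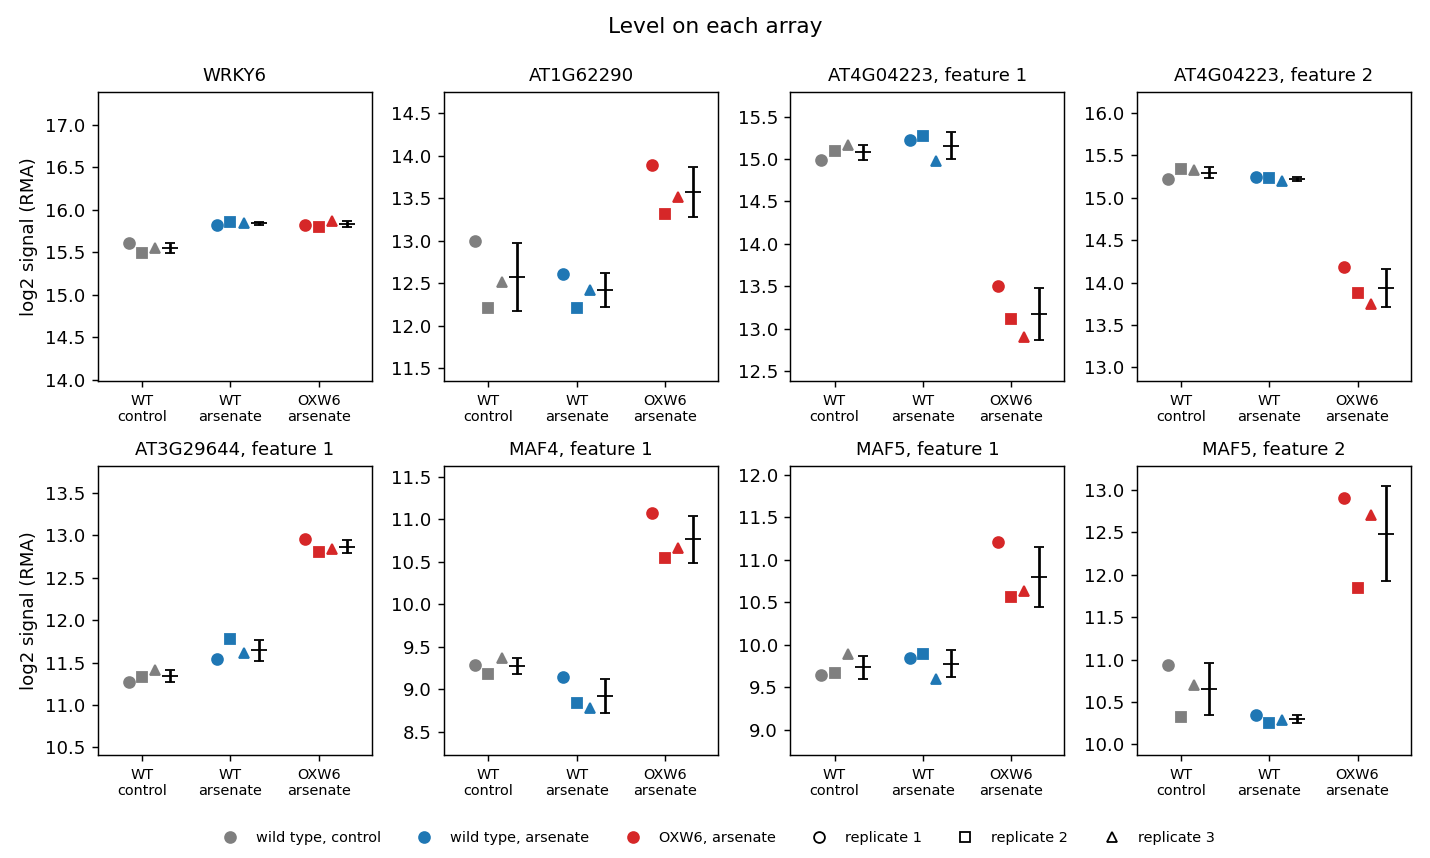
Log2 signal on each of the 9 arrays for WRKY6, its neighbour AT1G62290, the 4 called features and both features of MAF5; symbols mark the replicate number, bars give the group mean and SD (n = 3), and each panel spans the same number of log2 units. WRKY6 is level between the arsenate groups, while AT4G04223 is lower and AT3G29644, MAF4 and MAF5 are higher on all 3 OXW6 arrays than on the wild-type arrays.

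The question of the comparison is which transcripts set the overexpressor apart once both genotypes have met arsenate, and 4 features of 3 loci did so at the adjusted threshold (0.0108% of the features), 2 higher and 2 lower (0.00539% each). A long non-coding RNA and the flowering repressor MAF4 were higher, and a non-coding RNA on chromosome 4 was lower on both of its features. All 4 differed by more than 1 log2 unit. At an unadjusted p under 0.05 there were 2833 features (7.63%), of which 1623 were higher (4.37%) and 1210 lower (3.26%). The 3 arrays of one genotype lay wholly above those of the other for 3881 features (10.5%), 2373 with OXW6 higher (6.39%) and 1508 with OXW6 lower (4.06%).

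The non-coding RNA AT4G04223 had the largest called difference. Its first feature read 15.23, 15.28 and 14.97 in wild type with arsenate and 13.51, 13.11 and 12.90 in OXW6, against 14.99, 15.09 and 15.16 without arsenate. The wild-type groups overlapped each other and OXW6 lay below both on every array. The difference was -1.99 ± 0.16 (adjusted p = 0.018). The second feature read 15.24, 15.23 and 15.19 in wild type and 14.18, 13.88 and 13.75 in OXW6, a difference of -1.29 ± 0.11 (adjusted p = 0.018). Both features of this locus thus fell on the same side, without overlap between the genotypes.

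The long non-coding RNA AT3G29644 (chromosome 3) was higher in OXW6. Its first feature read 11.54, 11.78 and 11.61 in wild type with arsenate, 12.95, 12.80 and 12.84 in OXW6, and 11.27, 11.33 and 11.41 without arsenate. The difference was 1.22 ± 0.086 (adjusted p = 0.016), and the OXW6 arrays were closer to each other than to any wild-type array. A second feature of the locus, near the low end of the scale, read 8.53, 8.72 and 8.38 in wild type and 8.77, 8.85 and 9.01 in OXW6, a difference of 0.34 ± 0.11 that did not pass (adjusted p = 0.57).

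MAF4 (AT5G65070, chromosome 5), a MADS-box repressor of flowering related to FLC, read 9.14, 8.84 and 8.77 on its first feature in wild type with arsenate and 11.08, 10.54 and 10.67 in OXW6. Untreated wild type read 9.28, 9.17 and 9.36. OXW6 lay above both wild-type groups on every array, and the difference was 1.85 ± 0.15 (adjusted p = 0.018). The second MAF4 feature stood between 7.88 and 8.19 on all 9 arrays and differed by 0.02 ± 0.081.

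These 4 calls rest on the full set of arrays. With only the 6 arrays compared in the fit, limma called 0 features, each of these 4 at an adjusted p of 0.20, while 2381 features were at an unadjusted p under 0.05. Leaving out any 1 of the untreated arrays, wild-type arsenate replicate 1 or 3, or OXW6 replicate 3 also gave 0 calls, leaving out wild-type arsenate replicate 2 gave 1, and leaving out OXW6 replicate 1 gave 4. The differences themselves moved little over these fits: -2.15 to -1.85 and -1.41 to -1.19 for the features of AT4G04223, 1.17 to 1.29 for AT3G29644 and 1.69 to 1.96 for MAF4.

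**Figure D2:**
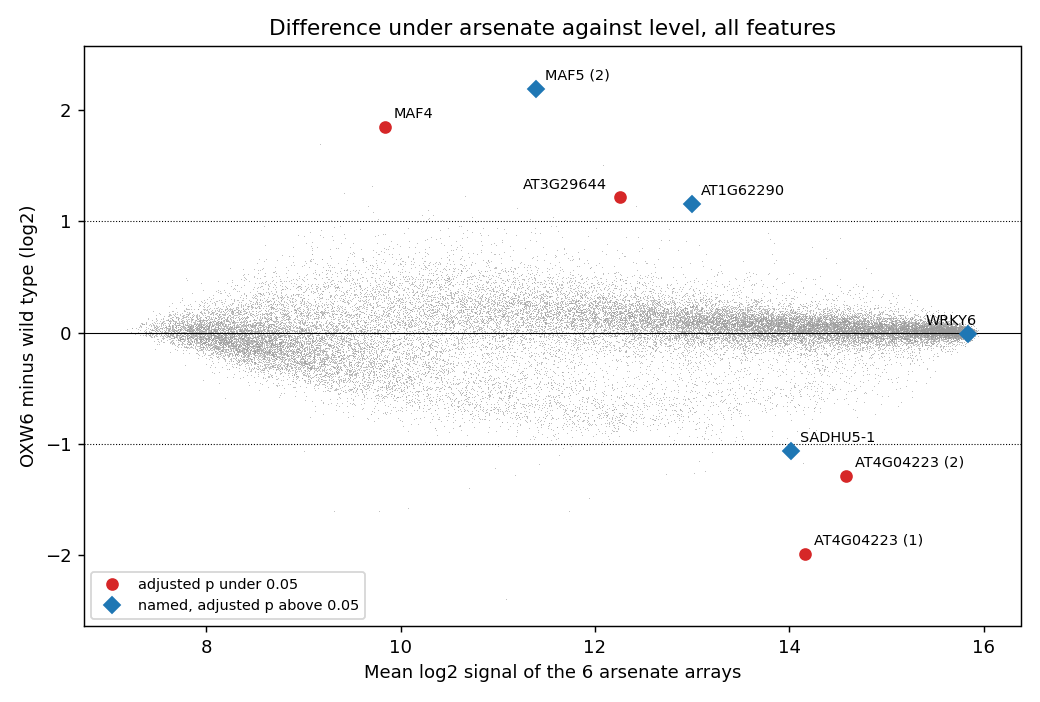
Difference between OXW6 and wild type under arsenate (log2) against the mean log2 signal of the 6 arsenate arrays for all 37118 features; red circles passed the adjusted threshold, blue diamonds are other features named in the text, and dotted lines mark 1 log2 unit. Most features lie within 0.25 of 0 (78.3%), with a band of features below 0 at middle signal.

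The size of the signal difference was bounded for most features. The difference was at least 1 log2 unit for 56 features, 27 higher and 29 lower, and 29063 features (78.3%) lay within 0.25 of 0. The 95% interval lay wholly inside 1 unit either way for 33720 features (90.8%). Without OXW6 replicate 2 that number was 32566 (87.7%). The mean level was above 15 for 5452 features and below 9.5 for 9101, near the ends of the scale. For those, an interval inside 1 unit need not bound the change of the transcript.

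With the replicate block, 12 features were called (0.0323%), 8 higher (0.0216%) and 4 lower (0.0108%), including all 4 above. The others that were higher were AT1G62290, MAF5, the metal transporter gene ZIP3, the Casparian strip membrane protein gene CASP4, AT5G26890 and the transcribed pseudogene AT5G36270, and those that were lower were AT4G04990 and the beta-glucosidase gene BGLU32. ZIP3 (AT2G32270) read 11.09, 10.78 and 10.86 in wild type and 11.87, 11.49 and 11.62 in OXW6 (difference 0.75, blocked adjusted p = 0.046). BGLU32 (AT5G24550) read 11.01, 10.44 and 10.79 in wild type, 10.10, 9.43 and 9.74 in OXW6, and 8.93, 8.45 and 8.50 without arsenate (difference -0.99, blocked adjusted p = 0.046). In both genes the genotypes did not overlap. AT5G36270 read 11.86, 10.95 and 10.69 in wild type and 12.85, 11.80 and 11.55 in OXW6, so that the groups overlapped although each numbered pair differed in the same direction.

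Without OXW6 replicate 2 the count of calls was 105 (0.283%), 52 higher (0.14%) and 53 lower (0.143%), again with all 4 included. At an unadjusted p under 0.05 there were then 7438 features (20%), 2768 higher (7.46%) and 4670 lower (12.6%). Of the 4670 lower, 2329 were pseudogene features and 149 were tRNA features, against 30 and 0 higher. Protein-coding features went the other way in number, with 2627 higher and 1753 lower. The 37118 features in all include 30891 protein-coding, 3863 pseudogene and 169 tRNA features. Of the 52 called higher, 51 were protein coding, and of the 53 called lower, 27 were protein coding and 20 were pseudogenes. On the array that was left out, the higher set had a median of 0.29 above the wild-type mean and the lower set a median 0.13 below it, against 0.86 and -0.98 on replicate 1 and 0.82 and -0.80 on replicate 3. These medians subtract the wild-type arrays that chose the sets, so their direction is no independent support.

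The FLC clade, the 6 MADS-box flowering repressors to which MAF4 belongs, was looked up as a whole after MAF4 had been seen. MAF5 (AT5G65080), the next gene to MAF4 on chromosome 5, read 10.35, 10.25 and 10.29 on its second feature in wild type with arsenate, 12.90, 11.84 and 12.71 in OXW6, and 10.94, 10.32 and 10.70 without arsenate. The OXW6 arrays again lay above all others, and the difference was 2.19 ± 0.27 (adjusted p = 0.10, with the block 0.046, without OXW6 replicate 2 0.0084). Its first feature differed by 1.02 ± 0.18 (adjusted p = 0.24), also without overlap.

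The rest of the clade was mixed. FLC (AT5G10140) differed by 0.77 ± 0.28 on its first feature, reading 8.93, 8.71 and 8.44 in wild type and 10.14, 8.98 and 9.26 in OXW6 (adjusted p = 0.62), while its other features, near the low end of the scale, differed by -0.02 and 0.11. MAF2 (AT5G65050, listed as AGL31) differed by -0.14 on one feature and 0.60 on the other. MAF3 (AT5G65060), which lies between MAF2 and MAF4, differed by 0.01 ± 0.076, and the 4 features of MAF1 by -0.04 to 0.21. None of these passed in the fits with or without the block.

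Lists of genes were read by their counts and medians, with the brightest feature standing for each gene. In the 33 lists, which hold 646 members at 640 loci, no member was called, against 0.0108% of all features. The list medians ran from -0.12 to 0.239, and the median over all features was 0.01. Protein-coding features as a whole leaned slightly upward, with a median of 0.03 and 61.5% of 30891 above 0, which is the background for the lists of protein-coding genes.

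**Figure D3:**
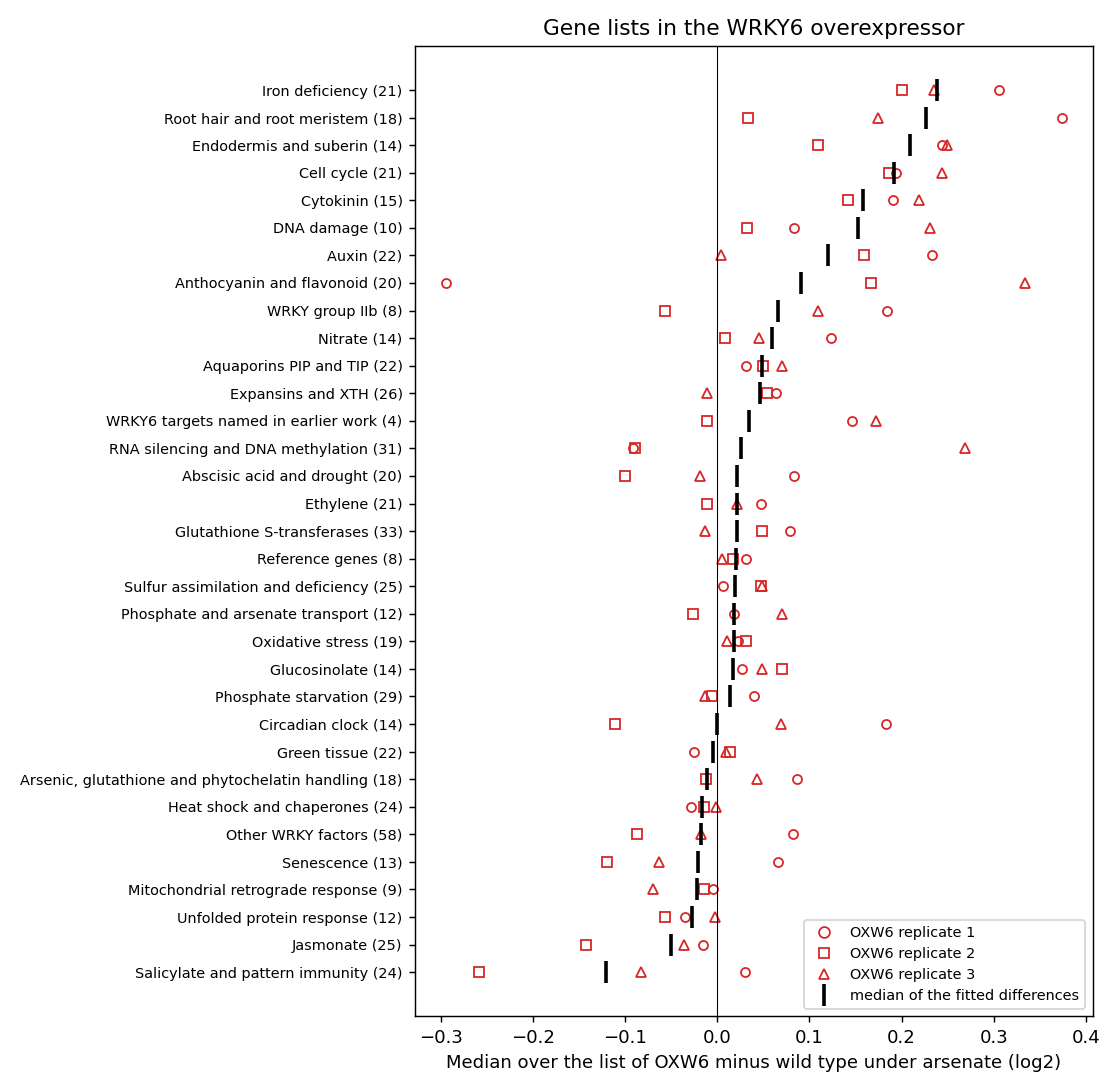
Median over each of the 33 gene lists of OXW6 minus the mean of the wild-type arsenate arrays (log2), with 1 open symbol per OXW6 array and a bar for the median of the fitted differences; the number of genes is in brackets. The iron deficiency list has the highest median (0.24) and the salicylate and pattern immunity list the lowest (-0.12), and for several lists the 3 arrays lie on both sides of 0.

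Genes linked to WRKY6 in other work were near the wild-type level, with 1 exception in size. Of the 4 listed, 2 had a mean level above 15, near the top of the scale, which leaves little room for a rise. A further target, SIRK (AT2G19190, named FRK1 below), was dropped from the list because RefSeq did not pair that symbol with the locus. It differed by -0.09 ± 0.23, whereas the 4 listed were all above 0. PHO1 (AT3G23430) read 15.07, 15.01 and 15.36 in wild type and 14.96, 15.15 and 15.40 in OXW6, a difference of 0.02 ± 0.13 (95% interval -0.28 to 0.32). PHT1;1 (AT5G43350), a high-affinity phosphate transporter that also carries arsenate, differed by 0.01 ± 0.063, and RAV1 (AT1G13260), a regulator of leaf senescence, by 0.05 ± 0.14. BOR1 (AT2G47160), the boron exporter of the root, read 11.63, 11.51 and 11.87 in wild type, 12.05, 12.18 and 12.47 in OXW6, and 13.89, 13.67 and 13.85 without arsenate. The OXW6 arrays lay between the other groups without overlap, and the difference was 0.57 ± 0.14 (adjusted p = 0.40).

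The close relatives of WRKY6 did not pass either, with or without the block on all arrays. Of the 8 measured group IIb members, 5 differed upward and 3 downward, with a median of 0.07. WRKY42 (AT4G04450), which like WRKY6 is known to act on PHO1, read 9.08, 8.62 and 8.92 in wild type and 9.86, 8.80 and 9.41 in OXW6. The difference was 0.48 ± 0.29 (adjusted p = 0.67), in the blocked fit 0.48 ± 0.11 (adjusted p = 0.17). A blocked limma fit without the number 2 arrays, added after the data were seen, called WRKY42 (0.63, adjusted p = 0.044) among 2998 features. WRKY31 (AT4G22070) differed by 0.21 ± 0.46 in the main fit. Among 58 other WRKY genes the median was -0.02, and WRKY70 (AT3G56400), a salicylate-responsive factor, read 14.91, 14.92 and 14.87 in wild type and 14.81, 14.50 and 14.54 in OXW6 (-0.28 ± 0.097, adjusted p = 0.59).

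Phosphate and arsenate transport genes had a median of 0.02 over 12 genes, 8 above 0 and 4 below. Of these, 6 had a mean level above 15, near the top of the scale, which leaves little room for a rise. PHT1;4 (AT2G38940), the other main high-affinity transporter of the root, differed by 0.03 ± 0.064. PHT1;6 (AT5G43340), a PHT1 family member best known from pollen, read 11.53, 10.74 and 11.29 in wild type, 10.64, 9.94 and 9.88 in OXW6, and 12.36, 11.57 and 11.91 without arsenate. OXW6 was the lowest group on every array, with a difference of -1.03 ± 0.29 (unadjusted p = 0.0072, adjusted p = 0.51).

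The 29 phosphate starvation genes had a median of 0.01, with 16 above 0, and 21 of them had a mean level above 15. IPS1 (AT3G09922), a non-coding RNA that sequesters miR399, differed by 0.05 ± 0.074, and SPX1 (AT5G20150), a phosphate sensor, by 0.04 ± 0.065. At an unadjusted p under 0.05 there were 2, both higher, a share of 2 in 29 that is near the 4.37% of all features. They were BHLH32, a transcription factor (0.33 ± 0.11), and LPR1, a ferroxidase of the root tip that acts in the root's response to low phosphate (0.52 ± 0.22).

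Heat shock genes stood far above the untreated level in wild type under arsenate and were near the top of the scale in both genotypes, with median levels of 15.72 in wild type and 15.71 in OXW6, so a difference between the genotypes could be hidden there. The 24 heat shock and chaperone genes had a median of -0.02, and 0 of 24 were at an unadjusted p under 0.05 in limma, against a median of -3.12 for untreated wild type relative to wild type with arsenate, which shares the arsenate wild-type arrays. HSFA2 (AT2G26150), a heat shock factor, read 15.81, 15.77 and 15.82 in wild type with arsenate and 15.71, 15.76 and 15.75 in OXW6, and 10.33, 10.98 and 10.91 without arsenate. The OXW6 arrays lay just below the arsenate wild-type arrays and far above the untreated ones, and the difference of -0.06 ± 0.15 did not pass (adjusted p = 0.96). Both arsenate groups were close to the arrays' highest values, so the feature cannot show whether the genotypes differed.

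The 18 genes of arsenic, glutathione and phytochelatin handling had a median of -0.01, and NIP1;1 (AT4G19030, listed as NLM1), an aquaporin that lets arsenite in, read 14.48, 14.36 and 14.31 in wild type, 14.69, 14.69 and 14.80 in OXW6, and 15.47, 15.40 and 15.34 without arsenate (0.35 ± 0.076, adjusted p = 0.38). The arrays of the 3 groups did not overlap, with OXW6 between the others. NIP5;1 (AT4G10380), a boric acid channel that also passes arsenite, differed by 0.24 ± 0.11. The 33 glutathione S-transferases, enzymes that attach glutathione to reactive compounds, had a median of 0.02, and GSTF11 (AT3G03190) read 10.56, 10.89 and 10.38 in wild type, 11.35, 11.24 and 11.14 in OXW6, and 12.36, 12.21 and 11.74 without arsenate (0.63 ± 0.18, adjusted p = 0.52).

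Sulfate transport held one of the larger differences among the lists. SULTR3;5 (AT5G19600), which assists root-to-shoot sulfate transport, read 11.22, 11.42 and 11.37 in wild type and 12.55, 12.95 and 13.00 in OXW6, against 12.15, 12.47 and 11.79 without arsenate. OXW6 lay above both wild-type groups on every array, with a difference of 1.50 ± 0.18 (adjusted p = 0.10, with the block 0.079, without OXW6 replicate 2 0.051). SULTR2;2 (AT1G77990, listed as AST56), a sulfate transporter of the vasculature, differed by 0.62 ± 0.21, also without overlap. The whole list of 25 sulfur genes had a median of 0.02, 13 above 0 and 12 below.

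The iron deficiency genes had the highest median of the 33 lists, 0.24 over 21 genes, and 19 of 21 were above 0. At an unadjusted p under 0.05, 6 of 21 genes were higher and 0 lower (against 4.37% of all features and 5.03% of protein-coding features higher). With OXW6 higher, 7 did not overlap (against 6.39% of all features and 7.26% of protein-coding features). The list's median was 0.31, 0.20 and 0.24 on OXW6 arrays 1, 2 and 3, so it did not rest on replicate 1 or 3 alone.

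The nicotianamine synthases, which make a metal chelator for long-distance iron transport, stood out within it. NAS4 (AT1G56430) read 10.17, 10.12 and 10.21 in wild type, 10.89, 10.85 and 11.19 in OXW6, and 11.07, 10.85 and 10.85 without arsenate. OXW6 stood above wild type with arsenate and overlapped untreated wild type. The difference was 0.81 ± 0.11 (adjusted p = 0.13, without OXW6 replicate 2 0.046).

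NAS3 (AT1G09240) read 13.54, 13.52 and 13.28 in wild type and 14.42, 14.09 and 14.23 in OXW6 (0.80 ± 0.13, adjusted p = 0.18). NAS1 (AT5G04950) differed by 0.64 ± 0.18 and NAS2 (AT5G56080) by 0.31. The NAS genes are close paralogs, so their probes may share transcripts, which was not tested. The regulators bHLH38 (AT3G56970) and bHLH39 (AT3G56980) differed by 1.00 ± 0.36 and 0.91 ± 0.32, while IRT1 (AT4G19690), the main iron importer of the root, and FRO2 (AT1G01580), the ferric reductase, differed by 0.11 and 0.09 with overlapping groups.

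**Figure D4:**
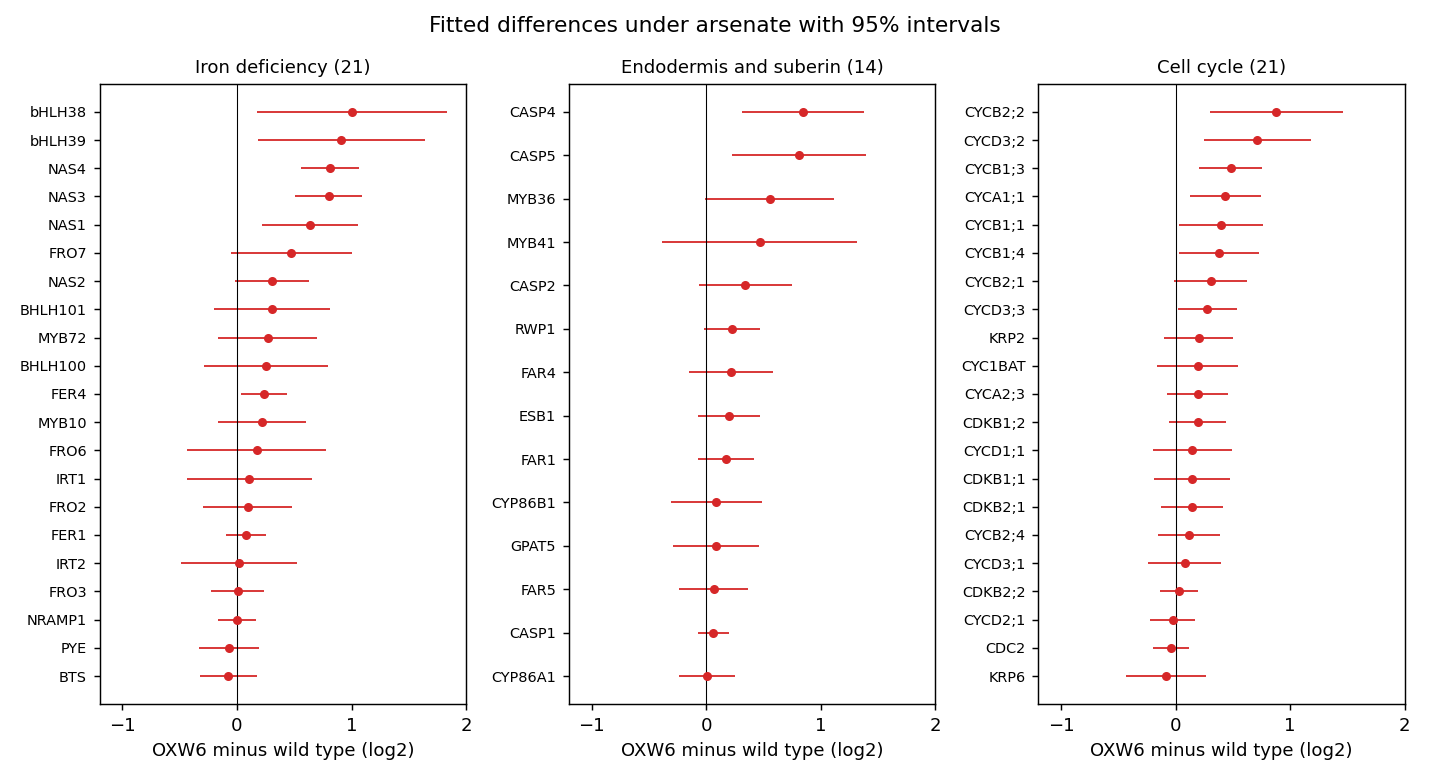
Fitted difference between OXW6 and wild type under arsenate (log2, points) with its 95% interval (bars) for each member of the iron deficiency (21 genes), endodermis and suberin (14 genes) and cell cycle (21 genes) lists. Points lie above 0 for 19, 14 and 18 genes, and no member passed the adjusted threshold.

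Root tissue genes leaned the same way. All 14 endodermis and suberin genes were above 0, with a median of 0.21. At an unadjusted p under 0.05, 2 were higher (against 4.37% of all features and 5.03% of protein-coding features). CASP4 (AT5G06200) read 12.45, 11.71 and 11.91 in wild type, 13.19, 12.58 and 12.84 in OXW6, and 13.47, 12.98 and 13.03 without arsenate, without overlap between the arsenate groups. The difference was 0.85 ± 0.23 (adjusted p = 0.49, in the blocked fit 0.046). CASP5 (AT5G15290) differed by 0.81 ± 0.25 and MYB36 (AT5G57620), the regulator of Casparian strip formation, by 0.55 ± 0.25. In whole-plant or organ RNA, more cells of a type and more RNA per cell cannot be told apart.

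Among 18 root hair and root meristem genes 17 were above 0, with a median of 0.23. Against the wild-type mean, the list's median was 0.37, 0.03 and 0.17 on OXW6 arrays 1, 2 and 3. Between same-numbered arrays of the arsenate groups, it was 0.28, 0.22 and 0.32. WER (AT5G14750, listed as MYB66), which specifies hairless epidermal cells, read 9.27, 9.82 and 9.38 in wild type, 10.49, 10.14 and 10.28 in OXW6, and 10.93, 11.41 and 10.95 without arsenate (0.81 ± 0.18, adjusted p = 0.39). RSL2 (AT4G33880), a driver of root hair growth, differed by 1.24 ± 0.37 with overlapping groups. The 22 green tissue genes, of which 17 had a mean level above 15, had a median of -0.00, and 0 passed at an unadjusted p under 0.05 in limma.

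Of 21 cell cycle genes 18 were above 0, with a median of 0.19 and medians of 0.19, 0.19 and 0.24 on the 3 OXW6 arrays. At an unadjusted p under 0.05, 7 were higher and 0 lower. The shares were 4.37% and 3.26% of all features, and 5.03% and 2.35% of protein-coding features. The mitotic cyclin gene CYCB1;3 (AT3G11520) read 11.19, 11.15 and 11.53 in wild type, 11.86, 11.58 and 11.86 in OXW6, and 12.19, 12.22 and 12.16 without arsenate (0.48 ± 0.12, adjusted p = 0.43). CYCA1;1 (AT1G44110) differed by 0.43 ± 0.13, CYCD3;2 (AT5G67260) by 0.71 ± 0.20 and CYCB2;2 (AT4G35620) by 0.88 ± 0.25.

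Of 15 cytokinin response genes 14 were above 0, with a median of 0.16. At an unadjusted p under 0.05, 4 type-A response regulators, which damp cytokinin signalling, were higher (against 4.37% of all features and 5.03% of protein-coding features). They were ARR3 (0.27 ± 0.099), ARR9 (0.46 ± 0.17), ARR15 (0.60 ± 0.25) and ARR16 (AT2G40670, 0.68 ± 0.29). The 22 auxin genes had a median of 0.12 and none at an unadjusted p under 0.05.

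The lists just described stood at higher levels in untreated wild type than in wild type with arsenate. Relative to the arsenate wild-type arrays, untreated wild type had a median of 0.52 for iron deficiency, 0.41 for endodermis and suberin, 0.97 for root hair and root meristem, 0.61 for cell cycle and 0.62 for cytokinin. Both sets of differences subtract the same 3 arrays, so no relation between them is read.

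Water channels and cell wall genes held further examples. Of 22 aquaporin genes 18 were above 0, with a median of 0.05. At an unadjusted p under 0.05, 4 aquaporin genes were higher (against 4.37% of all features and 5.03% of protein-coding features). Of 26 expansin and XTH genes 19 were above 0, with a median of 0.05. TIP4;1 (AT2G25810), a vacuolar aquaporin, read 14.17, 14.06 and 13.98 in wild type, 14.58, 14.62 and 14.49 in OXW6, and 15.18, 15.13 and 14.99 without arsenate. The 3 groups were separate, and the arsenate genotypes differed by 0.50 ± 0.084 (adjusted p = 0.23). EXPA14 (AT5G56320), a cell wall expansin, read 10.27, 10.12 and 10.22 in wild type, 11.11, 10.56 and 11.15 in OXW6, and 14.34, 14.20 and 14.47 without arsenate. OXW6 thus stood much nearer to arsenate-treated than to untreated wild type, with a difference of 0.74 ± 0.16 (adjusted p = 0.38, without OXW6 replicate 2 0.045).

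Defence genes leaned downward. Of 24 salicylate and pattern immunity genes 19 were below 0, with the lowest median of the lists (-0.12). Against the wild-type mean, the list's median was 0.03, -0.26 and -0.08 on OXW6 arrays 1, 2 and 3. Between same-numbered arrays of the arsenate groups, it was -0.12, -0.17 and -0.11. PR2 (AT3G57260, listed as BGL2), a pathogenesis-related glucanase, read 15.55, 15.18 and 15.62 in wild type and 14.97, 14.68 and 14.70 in OXW6 (-0.66 ± 0.14, adjusted p = 0.38). FRK1 (AT2G19190), a receptor kinase known as a WRKY6 target during senescence and an immunity marker, differed by -0.09 ± 0.23.

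WRKY38 (AT5G22570), induced by salicylate, differed by -0.90 ± 0.39 with overlapping groups, its lowest value being 9.62 on OXW6 replicate 2.

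Among 25 jasmonate genes 19 were below 0, with a median of -0.05. The defensin gene PDF1.2 (AT5G44420) read 15.08, 14.75 and 14.37 in wild type and 14.13, 13.56 and 12.97 in OXW6 (-1.18 ± 0.32, adjusted p = 0.49). The groups did not overlap, and its paralogs PDF1.3 and PDF1.2b, neighbours of each other on chromosome 2, differed by -1.16 and -1.27. These defensin genes are nearly identical in sequence, and whether their probes measured different transcripts was not tested.

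Genes of RNA silencing and DNA methylation, the pathways that keep transposons quiet, did not pass. Their median was 0.03 over 31 genes, 21 above 0 and 10 below. Against the wild-type mean, the list's median was -0.09, -0.09 and 0.27 on OXW6 arrays 1, 2 and 3. Between same-numbered arrays of the arsenate groups, it was -0.01, 0.08 and 0.01. In limma 0 of 31 were at an unadjusted p under 0.05.

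Retroelement loci were represented by the Sadhu elements, short non-coding retrotransposons that are typed as pseudogenes and known to differ in silencing between accessions. Of 17 Sadhu features at 16 loci 14 were below 0, with a median of -0.17, and 0 were called. At an unadjusted p under 0.05, 7 were lower and 0 higher (41.2% against 3.26% of all features and 9.53% of pseudogene features), and 8 did not overlap with OXW6 lower (against 4.06% of all features and 7.46% of pseudogene features). Their median was -0.16, -0.16 and -0.12 on OXW6 arrays 1, 2 and 3, close between the arrays.

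SADHU5-1 (AT4G01525, chromosome 4) read 14.54, 14.48 and 14.64 in wild type with arsenate, 13.29, 13.71 and 13.47 in OXW6, and 14.72, 14.70 and 14.76 without arsenate. Both wild-type groups lay above every OXW6 array. The difference was -1.06 ± 0.11 (adjusted p = 0.057, without OXW6 replicate 2 0.015), the first to miss the threshold.

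SADHU3-2 (AT3G42658) read 11.08, 11.08 and 11.12 in wild type, 10.44, 10.50 and 10.29 in OXW6, and 11.15, 11.02 and 11.15 without arsenate (-0.68 ± 0.078, adjusted p = 0.099). SADHU5-2 (AT5G27927) read 13.14, 13.55 and 13.24 in wild type and 12.28, 12.55 and 12.11 in OXW6 (-0.996 ± 0.15, adjusted p = 0.17), and SADHU1-3 (AT5G28626) differed by -0.76 ± 0.14. In these loci, too, OXW6 was below both wild-type groups on every array. SADHU9-1 (AT1G44935) and SADHU8-1 (AT1G50735) were different in pattern: they differed by -0.45 ± 0.14 and -0.48 ± 0.15, but OXW6 replicate 2, at 10.18 and 9.79, was close to wild type with arsenate, and untreated wild type was the lowest group.

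Pseudogenes, tRNA loci and mitochondrial features differed as whole classes between arrays. Relative to the mean of wild type with arsenate, the 3863 pseudogene features had a median of -0.62, 0.09 and -0.35 on OXW6 arrays 1, 2 and 3 and of -0.65, -0.47 and -0.70 on the untreated arrays. The 169 tRNA features had medians of -1.15, 0.14 and -0.83 on the OXW6 arrays and the 107 mitochondrial features of -0.77, 0.09 and -0.35. On the untreated arrays the medians were -1.11, -0.51 and -1.48 for tRNA and -1.22, -0.41 and -0.55 for mitochondrial features. OXW6 replicate 2 thus stood at the arsenate wild-type level in the 3 classes, and replicates 1 and 3 stood below it.

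The fitted medians were -0.30 for pseudogenes, -0.58 for tRNA and -0.30 for mitochondrial features, and -0.48, -0.997 and -0.58 without OXW6 replicate 2. Of the 3863 pseudogene features 368 were lower (9.53%, against 3.26% of all features) at an unadjusted p under 0.05. At the same threshold 8 were higher (0.21%, against 4.37% of all features), and 0 were called. Without OXW6 replicate 2, 20 of the 3863 were called lower, against 0.143% of all features. Removal of DNA before labelling is not stated in the labels, so signal from DNA and from transcripts of these classes cannot be told apart. Protein-coding features had medians of 0.06, 0.00 and 0.04 on the 3 OXW6 arrays.

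**Figure D5:**
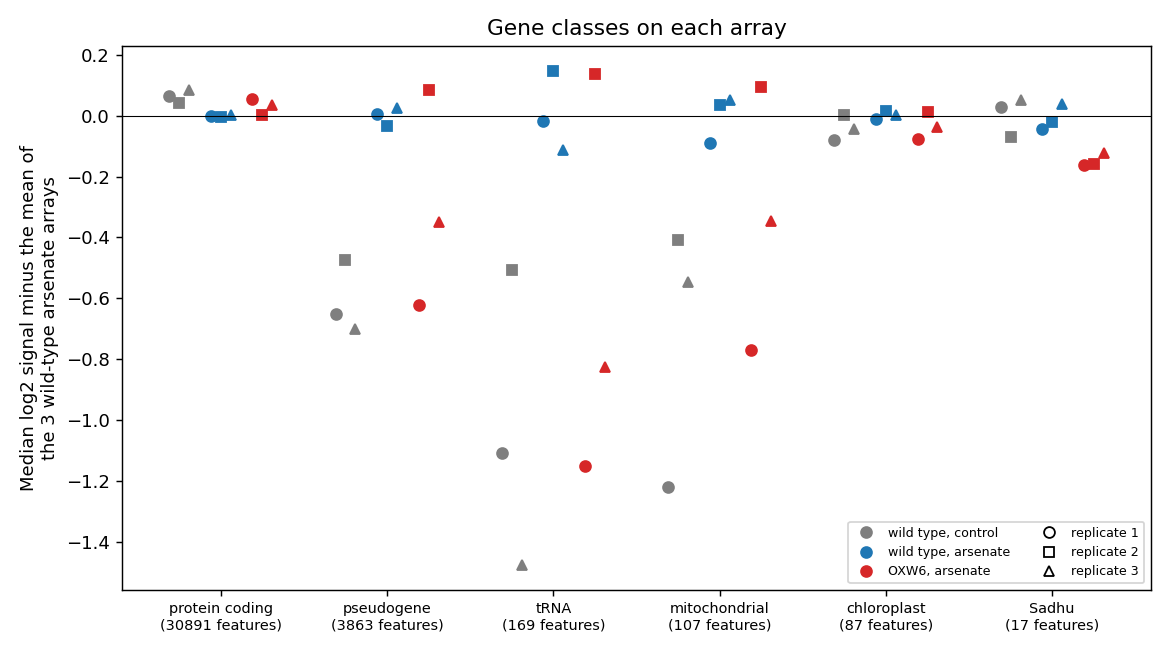
Median over each class of log2 signal minus the mean of the 3 wild-type arsenate arrays, for each of the 9 arrays (colour for the group, symbol for the replicate number). OXW6 replicate 2 lies with the wild-type arsenate arrays for pseudogene, tRNA and mitochondrial features, OXW6 replicates 1 and 3 lie below them, and the 3 OXW6 arrays lie together for the Sadhu features.

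The tRNA locus with the smallest p, AT3G07115, read 11.44, 11.55 and 11.23 in wild type, 9.77, 9.70 and 10.54 in OXW6, and 9.76, 10.68 and 9.64 without arsenate (-1.40 ± 0.31, adjusted p = 0.38). All 169 tRNA features were below 0, and 6 were lower and 0 higher at an unadjusted p under 0.05 (3.55% lower, near the 3.26% of all features). Chloroplast features had a median of -0.03 over 87, but 84 of them had a mean level above 15.

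The 3 called loci were on chromosomes 3, 4 and 5. At an unadjusted p under 0.01 there were 681 of 31993 ordered loci, and 15 runs of neighbours in the same direction, each of 2 loci. Besides MAF4 with MAF5 and PDF1.3 with PDF1.2b, they included EXPA14 with AT5G56310 (0.74 and 0.43) and AT4G12510 with AT4G12520 (0.88 and 0.76), CYP706A6 with CYP706A7, both cytochrome P450 genes (0.58 and 0.73), UMAMIT27 with UMAMIT26, from a family of amino acid transporters (0.45 and 0.50), and WPP1 with the cyclin gene CYCA3;1 (0.53 and 0.47). Of the 15 runs 13 were higher and 2 lower in OXW6. Over all features, 1623 were higher and 1210 lower at an unadjusted p under 0.05. Several of the pairs are from the same gene family, and whether their probes share transcripts was not tested.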

How the data were processed

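The 9 single-colour NimbleGen arrays measured total RNA, per the labels, from independent biological samples. The deposited values are on a log2 scale after RMA, per the submitters' processing notes; no label or header used here names the genome build behind the probes, so no coordinates are printed. RMA makes values comparable between arrays and leaves no depth or background measure, and signal near the top of the scale leaves little room for a rise.

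All features were fitted with limma (version 3.58.1, R 4.3.3): lmFit over the 3 groups, the contrast of the 2 arsenate genotypes and eBayes, with two-sided p-values adjusted by Benjamini-Hochberg over 37118 features and no filter. The fit was tried on simulated arrays with independent noise. These had no shared deviation of same-numbered arrays and no divergent array, so they do not bear on how stable the calls are here. Loci are row names without the final number, and 31993 of 32627 matched RefSeq (TAIR10.1), used for names, gene types and neighbours only. A list took the brightest feature per gene. Dropped were 18 symbols that RefSeq did not pair with the given locus or did not hold, and 6 second names. SIRK, HAC1 and FIT were dropped in this way although their loci were on the array. A further 1 locus was not on the array. The symbol ACP5 was first paired with an acyl carrier protein and was then, after the values were seen, set to its meaning in the phosphate literature, PAP17, already listed. A list member that is not reported here was left out of its list, also after the values were seen.

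Replicate numbers come from the titles. Same-numbered arrays of different groups had correlated deviations from their group means (r 0.29 to 0.63 in 9 of 9 pairs), and 9 of 9 arrays correlated best with their own number.

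Members, lists and tests were chosen with earlier results of these data known. Named genes were WRKY6, WRKY42, WRKY31, PHO1, PHT1;1, PHT1;4, RAV1, BOR1, FRK1, SPX1, IPS1 and HSFA2, called loci without overlap, up to 4 genes per list and up to 5 loci per class with the smallest adjusted p, and runs of neighbours; the text names part of these. AT1G62290, the other features of called loci, the rest of the FLC clade, bHLH38, features called only with the block, and NAS2, IRT1 and FRO2 were named after their values were seen. Promoter motifs were not used here.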

Additional observations from a re-analysis of the deposited data

How the results depend on the processing

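Counts of calls depended on the arrays and on the model. Against 4 calls (4 of at least 1 log2 unit), there were 0 (0) with only the 6 arrays compared, where limma had 2381 features at an unadjusted p under 0.05. The replicate block gave 12 (6). Leaving out 1 array gave 0 to 105 (0 to 23), with all values other than 0, 1 and 4 from the fit without OXW6 replicate 2. Array weights gave 5690 (193), 2457 higher and 3233 lower, with a weight of 6.81 on OXW6 replicate 3 and of 0.406 and 0.391 on replicates 1 and 2, so that fit leaned mostly on 1 OXW6 array. The block without the number 2 arrays, added after the data were seen, gave 2998 (818), with 2 pairs left per contrast. Median centring and the trended, robust variance each gave 5, and quantile normalization, a filter on low features and the removal of pseudogene, tRNA and organelle features each gave 4, all of at least 1 unit. The filter left out MAF4.

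The WRKY6 difference stayed uncalled and changed sign with array weights (0.031) and with the block without the number 2 arrays (0.0125), and ran from -0.0277 to 0.00747 over the fits without 1 array. Other differences near 0, called in none of these fits, also changed sign. With median centring, which shifted the median over all features by -0.038, PHT1;4 was at -0.00568, PHO1 at -0.0154 and PHT1;1 at -0.0322. PHO1 was at -0.0373 with the block without the number 2 arrays and WRKY31 at -0.0637 with array weights. Without 1 array, PHO1 ran from -0.0906 to 0.129, PHT1;1 from -0.0147 to 0.0371, WRKY31 from -0.158 to 0.587, RAV1 from -0.0687 to 0.186 and FRK1 from -0.259 to 0.0828. Of 561 list medians under 17 alternatives, 522 moved by less than the spread between arrays 41 changed sign and the largest shift was 0.349. In 27 of them a member was called. With array weights, 10 of 21 cell cycle, 6 of 15 cytokinin and 5 of 21 iron deficiency genes were called, all higher. The share called higher was 6.62% of all features and 7.63% of protein-coding features in that fit. Of the salicylate and pattern immunity genes 6 of 24 were called, all lower, against 8.71% of all features and 4.85% of protein-coding features.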

Other observations

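Further loci outside the lists, picked by their small p after the values were seen, differed without passing the adjusted threshold. Those that were lower included AT5G37230, AT5G37250 and AT5G37270 on chromosome 5, for which no function is named in the tables used here. The 3 loci formed no run of neighbours, and whether their probes share transcripts was not tested. AT5G37250 read 12.06, 12.54 and 12.25 in wild type with arsenate, 9.33, 10.73 and 9.58 in OXW6, and 11.75, 11.67 and 11.72 without arsenate. OXW6 lay below both wild-type groups on every array, with replicate 2 the highest of the 3. The difference was -2.40 ± 0.32 (adjusted p = 0.13, without OXW6 replicate 2 0.0037). AT5G37230 and AT5G37270 differed by -1.50 ± 0.35 and -1.29 ± 0.27, and OXW6 replicate 2 was again the highest OXW6 array. The non-coding RNA AT5G38005 read 13.80, 13.91 and 13.54 in wild type, 12.90, 12.73 and 12.36 in OXW6, and 13.73, 13.69 and 13.73 without arsenate (-1.08 ± 0.15, adjusted p = 0.13).

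Among those that were higher, UMAMIT4 (AT3G18200), from a family of amino acid transporters, read 11.28, 10.89 and 11.20 in wild type with arsenate, 12.14, 11.98 and 12.10 in OXW6, and 14.16, 14.02 and 13.87 without arsenate (0.95 ± 0.12, adjusted p = 0.11, without OXW6 replicate 2 0.047). UMAMIT31 (AT4G01440) read 12.90, 12.63 and 12.86 in wild type and 13.50, 13.49 and 13.50 in OXW6 (0.70 ± 0.089, adjusted p = 0.11). The cyclin gene CYCP3;2 (AT3G60550) read 11.88, 11.93 and 11.95 in wild type, 12.74, 12.52 and 12.64 in OXW6, and 12.49, 12.45 and 12.31 without arsenate. It thus stood above both wild-type groups on every OXW6 array, with a difference of 0.71 ± 0.081 (adjusted p = 0.099, without OXW6 replicate 2 0.045).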
